A study of Homo sapiens with 4 samples.

Results

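A set of 10 genes of the NRF2 pathway, of glutathione synthesis and of the defense against ferroptosis was examined in SK-N-AS, a human neuroblastoma cell line long in culture. The genes were chosen by name, as NFE2L2, KEAP1, NQO1, HMOX1, GCLC, GCLM, SLC7A11, GPX4, TXNRD1 and AKR1C1. All 10 were found among the 17687 genes named on the array. Treated cells received 30 µM BG-P400-TAT for 48 h, and the controls, called untreated here, received phosphate-buffered saline for the same time. Each group held 2 arrays of the same line, so the results describe 1 cell line. BG-P400-TAT is presented in the series title as acting on both the norepinephrine transporter and the thyroid hormone-binding integrin αvβ3.

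NRF2, the protein of NFE2L2, is a transcription factor that KEAP1 holds in the cytoplasm and passes to a ubiquitin ligase for degradation. When electrophiles or oxidants modify KEAP1, NRF2 is spared, enters the nucleus with a small MAF partner and binds antioxidant response elements near genes of detoxification, glutathione synthesis and the thioredoxin system. Ferroptosis is a form of cell death driven by iron and by peroxides of membrane lipids, and GPX4 holds it back by reducing those peroxides with glutathione. Some neuroblastoma lines are known to die this way when cystine uptake or GPX4 is blocked.

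The short stretches below show where the core of the antioxidant response element, TGACNNNGC, lies near the start of genes of this set. They are shown because that element is the sequence through which NRF2 is known to act. The search covered both strands of the RefSeq promoter windows (GRCh38.p14), which run from 250 bases before to 50 bases after a gene's start, and no other motif was searched. Of the 10 genes, 8 had at least 1 window, with 13 windows in all. HMOX1 and SLC7A11 had none. The element was found in 4 windows of 3 genes, KEAP1, GCLM and TXNRD1. NFE2L2, NQO1, GCLC, GPX4 and AKR1C1 had windows without a match. Sequence farther from a start was not searched, so these genes may hold the element there. Among all 35116 windows of this length, 13.3% held it, and among all 27305 genes with a window, 16.1% did. Capitals mark the element, read 5′ to 3′ on the gene's strand, with 10 bases on each side. Where the capitals begin with GC, the element lies on the opposite strand.
KEAP1, chr19:10502784-10502812, minus strand: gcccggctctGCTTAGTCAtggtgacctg
KEAP1, chr19:10502807-10502835, minus strand: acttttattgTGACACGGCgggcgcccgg
GCLM, chr1:93909446-93909474, minus strand: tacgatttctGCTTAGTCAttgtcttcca
TXNRD1, chr12:104215670-104215698, plus strand: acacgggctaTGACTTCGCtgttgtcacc
TXNRD1, chr12:104286920-104286948, plus strand: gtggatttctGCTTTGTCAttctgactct
KEAP1 and GCLM carried the same 9 bases, TGACTAAGC on the opposite strand, ending 23 and 26 bases before their respective starts. The TXNRD1 elements ended 91 and 94 bases before 2 different starts of the gene. A further match in TXNRD1 spans its start and is not printed. These are matches of letters, and binding was not measured here.

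The deposited values are log2 expression per probe set after RMA, which adjusts background and equalises the distributions of the arrays, so a change common to most genes would be removed. Each array measured RNA of a bulk culture, in which fewer cells expressing a gene and less RNA per cell cannot be told apart. A gene is called above the limit on an array where its value exceeds the 95th percentile of that array's 612 negative-control probe sets, which was 7.31 (replicate 1) and 7.64 (replicate 2) in untreated cells and 7.19 and 7.25 in treated cells. The arrays had between 8808 and 9657 of 21448 probe sets above it, with the fewest on untreated replicate 2. That array also stood farthest from the others: the median absolute log2 difference was 0.237 to 0.244 in the 3 pairs with it and 0.193 to 0.208 in the 3 without. Levels of different genes come from different probes and are not set against each other. All 6 mesenchymal neuroblastoma markers examined were above the limit on the 4 arrays, against 43.3% of all named genes. Of 7 adrenergic markers, 4 were above it, PHOX2A, HAND2, GATA3 and ISL1, whereas TH, DBH and MYCN were not above it on any array. Of 10 markers of other cell types, PTPRC, the leukocyte surface phosphatase, was above the limit on the 4 arrays, between 12.57 and 12.80. The other leukocyte markers measured, CD3E and CD14, were not above it on any array. What the PTPRC value reflects is not settled by these data. None of the markers passed limma's test after adjustment. The mesenchymal markers had a median log2 difference, treated minus untreated, of 0.33, with 6 of 6 positive and 3 with both treated arrays above both untreated arrays. Among all named genes above the limit these shares were 58.8% and 21.2%. The adrenergic markers had a median of 0.12 with 5 of 7 positive, against 49.8% of all named genes. PHOX2A, singled out after its values were seen, had 0.58 (interval 0.11 to 1.05). HAND2 had 0.12, GATA3 0.16 and ISL1 0.17, each with an interval that included 0. TH and MYCN, not above the limit on any array, had negative differences. The markers of other cell types, 9 of 10 of them with a mean below the limit, had a median of -0.26. Of these 10, 5 had both treated arrays below both untreated arrays, against 16.4% of all named genes. The part of these markers in the results was not tested.

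Of the 10 genes, 9 were above the limit on all 4 arrays, against 43.3% of all named genes, and HMOX1 was above it on none. With the 99th percentile as a stricter limit, 4 of the 10 were above it on both untreated arrays, NFE2L2, NQO1, GPX4 and TXNRD1. The share of all named genes above this stricter limit was not computed. None of the 10 differed between treated and untreated cells in limma's test across all probe sets at an adjusted p under 0.05, nor did any at an unadjusted p under 0.05. Of all 21448 probe sets, 0% passed after adjustment and 5.08% at the unadjusted threshold. The differences were small: 8 of the 10 genes had a log2 difference, treated minus untreated, above 0, against 49.8% of all named genes. Of the 9 genes whose mean was above the limit, 8 were positive, against 58.8% of all named genes above it. The median log2 difference of the 10 was 0.14, beside -0.00068 for all named genes, and that of the 9 above the limit was 0.15, beside 0.04. The mesenchymal markers had a median of 0.33, the adrenergic markers 0.12 and the markers of other cell types -0.26. The median of the 10 ran from 0.0996 to 0.186 when single arrays were left out. Among the 9 genes above the limit, the 95% confidence intervals ran on the linear scale from 0.683-fold (NFE2L2) to 1.91-fold (GCLC), so that every one lay within 2-fold in both directions.

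**Figure D1:**
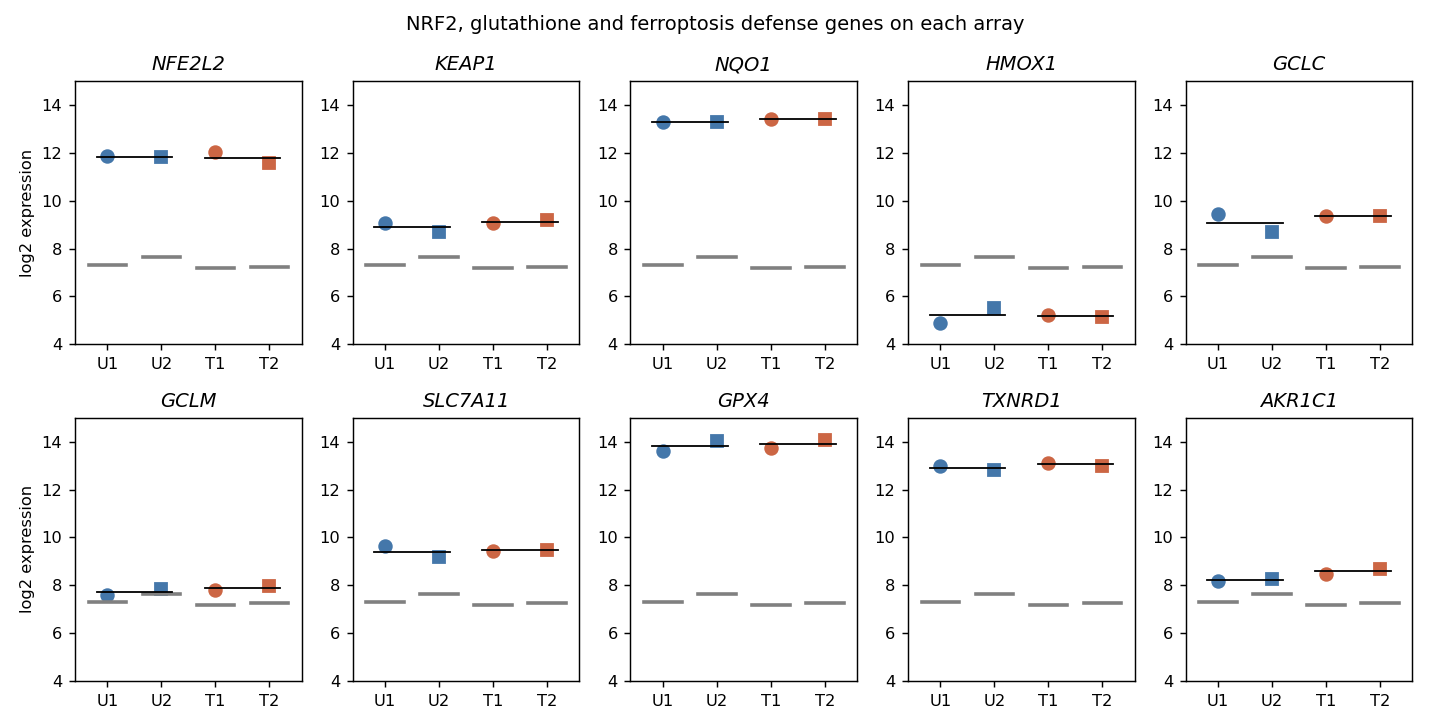
Log2 expression of the 10 genes on untreated replicates 1 and 2 (U1, U2, blue) and treated replicates 1 and 2 (T1, T2, orange). Black lines are group means and short grey bars are each array's limit, the 95th percentile of its negative controls; HMOX1 lies below the bars on the 4 arrays, and the other 9 genes lie above them.

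The regulators were examined first. NFE2L2 stood at 11.85 and 11.83 on the untreated arrays (replicates 1 and 2) and at 12.02 and 11.58 on the treated arrays. The treated arrays lay on either side of both untreated arrays, so the groups overlapped. Its log2 difference was -0.04 ± 0.22 (SE, n = 2 per group), with a 95% interval from -0.55 to 0.47 and a limma adjusted p of 0.997, and it was 0.18 without treated replicate 2. KEAP1, the adaptor that marks NRF2 for degradation, stood at 9.07 and 8.69 in untreated and at 9.07 and 9.19 in treated cells. Untreated replicate 2 was the low array, and the other untreated array lay between the treated ones. The log2 difference of KEAP1 was 0.25 (interval -0.25 to 0.75, limma adjusted p = 0.963), 0.055 without untreated replicate 2 and 0.442 without untreated replicate 1.

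Among the partners of the regulators, CUL3, the scaffold of the ligase to which KEAP1 brings NRF2, stood at 11.95 and 12.001 in untreated and at 12.16 and 12.01 in treated cells. Both treated arrays of CUL3 were above both untreated arrays, by a margin that was small beside the gap between the treated arrays, and the log2 difference was 0.11 (interval -0.33 to 0.55). BACH1, a repressor that occupies antioxidant response elements in competition with NRF2, had a log2 difference of 0.046 (interval -0.53 to 0.62). SQSTM1, the p62 autophagy receptor that sequesters KEAP1, had 0.023 (interval -0.45 to 0.50). The signs of BACH1 and SQSTM1 turned after cyclic loess and with single arrays left out. MAFG, a small MAF partner of NRF2, was not above the limit on any array. MAFF, another small MAF, was above it on 1 of the 4, at 7.09 and 7.54 in untreated and 6.76 and 7.31 in treated cells. DPP3, a peptidase that binds KEAP1, had the smallest p of its list, with a log2 difference of 0.34 (interval -0.11 to 0.79, limma adjusted p = 0.948). MAFF had the next smallest among the genes of the list with a mean above the limit. In the list of genes that control NRF2, 0 of 11 measured genes passed in either direction, 9 were positive, and the median log2 difference was 0.11. Over all named genes, 49.8% were positive and the median was -0.00068. Among the 10 of the list with a mean above the limit, 8 were positive, against 58.8% of all named genes above it.

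The target genes of detoxification came next. NQO1, a quinone reductase widely read as a sign of NRF2 activity, stood at 13.28 and 13.30 in untreated and at 13.40 and 13.43 in treated cells. Both treated arrays were above both untreated arrays, and the arrays of each group lay within 0.0243 of each other. The log2 difference of NQO1 was 0.13 ± 0.18 (SE, n = 2 per group), with a 95% interval from -0.30 to 0.55 and a limma adjusted p of 0.985. Its SE rests mostly on the variance shared over all probe sets, and with single arrays left out the difference was 0.114 to 0.138.

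HMOX1, the inducible heme oxygenase, stood at 4.90 and 5.53 on untreated replicates 1 and 2 and at 5.20 and 5.13 on treated replicates 1 and 2. It was thus not above the limit on any array of either group, and no fold change is given. The lowest and the highest of its values were both untreated.

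AKR1C1, an aldo-keto reductase of steroids and reactive carbonyls, stood at 8.17 and 8.25 in untreated and at 8.47 and 8.68 in treated cells. Both treated arrays were above both untreated arrays, and the difference was larger than the gap within either group. The log2 difference was 0.36 ± 0.19 (SE, n = 2 per group), 1.29-fold with a 95% interval from 0.941- to 1.76-fold, and the limma adjusted p was 0.948, so AKR1C1 did not pass. With single arrays left out its log2 difference was 0.257 to 0.468. AKR1C2 and AKR1C3 are close paralogs of AKR1C1, and the sources used here do not say how probes were kept apart between them. Neither was above the limit on any array. AKR1C2 stood at 5.81 and 5.70 in untreated and at 5.86 and 6.47 in treated cells, and AKR1C3 at 6.45, 6.07, 6.41 and 6.56 in the same order.

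Of the 10 genes, 3 had both treated arrays above both untreated arrays, NQO1, AKR1C1 and TXNRD1, against 16.8% of all named genes. All 3 belong to the 9 genes above the limit, for which the background was 21.2%. None of the 10 had both treated arrays below, against 16.4% of all named genes and 11.4% of those above the limit. NQO1 and AKR1C1 were the 2 of 9 whose difference exceeded the gap within both groups, against 20.7% of all named genes above the limit. The count of 2 of 9 is close to that background. For a single gene, the smallest two-sided p that an exact permutation test can reach with these group sizes is 0.333.

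**Figure D2:**
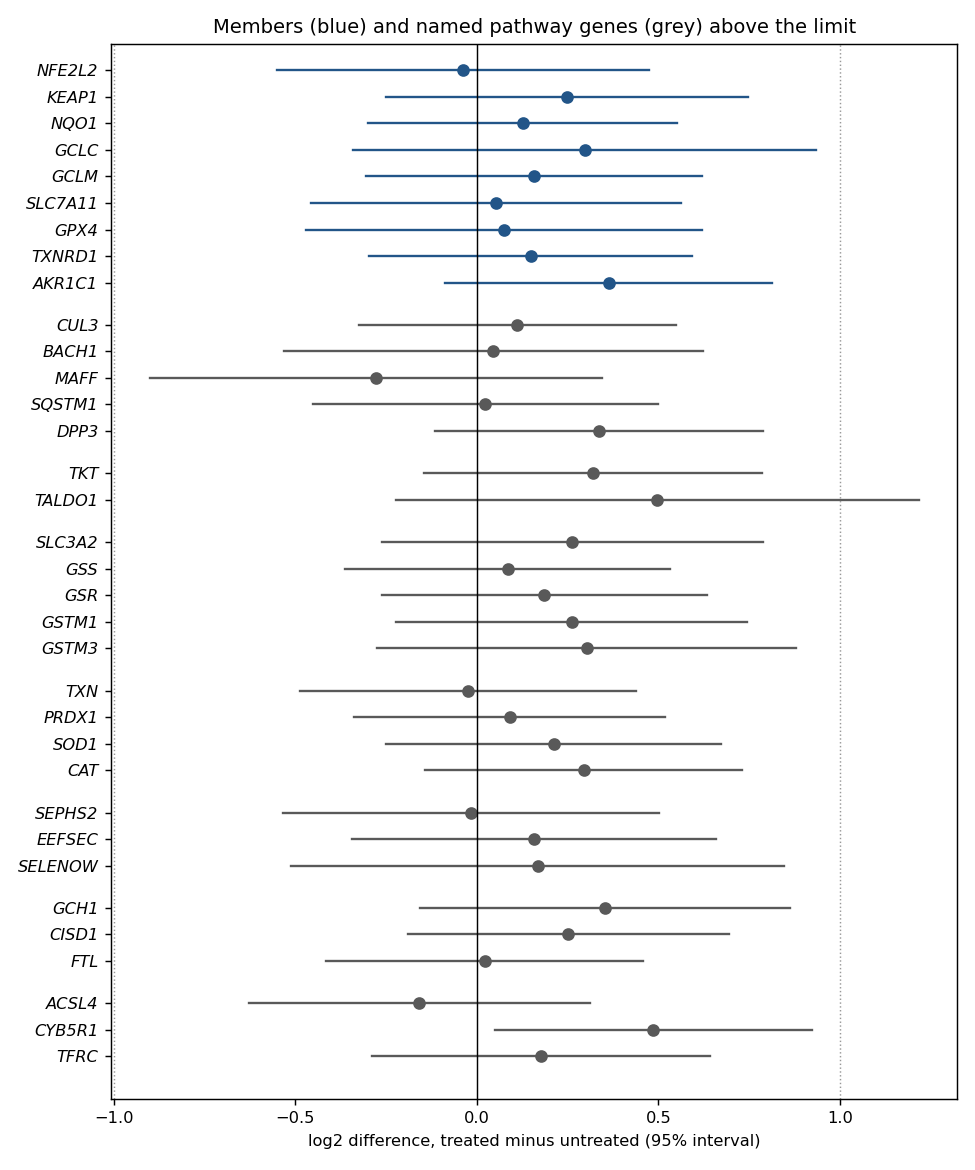
Log2 difference (treated minus untreated, horizontal axis) with its 95% confidence interval from limma for the 9 of the 10 genes above the limit (blue) and for named genes of the 7 pathway lists above it (grey, grouped by list); dotted lines mark 2-fold. The intervals of the 9 blue genes include 0 and lie within the dotted lines, and among the grey genes that of CYB5R1 (0.05 to 0.92) does not include 0.

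Of 22 further target enzymes listed, 19 were measured and 13 had a mean above the limit. None passed in either direction, 14 were positive, and the median log2 difference was 0.10. Positive among the 13 above the limit were 11, against 58.8% of all named genes above it. SRXN1, the sulfiredoxin that repairs peroxiredoxins, was not above the limit on any array, at 5.73 and 5.38 in untreated and 5.86 and 6.22 in treated cells. TKT and TALDO1 had the smallest p among the genes of the list with a mean above the limit. TKT, the transketolase of the pentose phosphate route, stood at 11.93 and 12.17 in untreated and at 12.45 and 12.28 in treated cells, with the treated arrays above the untreated ones. The log2 difference of TKT was 0.32 (interval -0.15 to 0.79, limma adjusted p = 0.948). TALDO1, the transaldolase of the same route, stood at 9.65, 8.77, 9.58 and 9.83 in that order, and its log2 difference of 0.50 (interval -0.22 to 1.22) was 0.0579 without untreated replicate 2, the low array.

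Glutathione is built from glutamate, cysteine and glycine, and the supply of cysteine is often limiting. SLC7A11, the light chain of the cystine and glutamate exchanger and a target through which ferroptosis is induced experimentally, stood at 9.62 and 9.18 in untreated and at 9.42 and 9.48 in treated cells. The treated arrays lay between the untreated ones. Its log2 difference was 0.05 (interval -0.46 to 0.56, limma adjusted p = 0.997), and -0.166 without untreated replicate 2. SLC3A2, the heavy chain of the exchanger, stood at 11.43 and 11.80 in untreated and at 11.72 and 12.03 in treated cells, and its groups overlapped, with a log2 difference of 0.26 (interval -0.26 to 0.79), which was 0.0786 without untreated replicate 1 and 0.448 without untreated replicate 2.

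GCLC, the catalytic subunit of glutamate-cysteine ligase, stood at 9.45 and 8.71 on untreated replicates 1 and 2, and at 9.37 and 9.38 on treated replicates 1 and 2. Untreated replicate 2 alone was low, and the other 3 arrays lay close together. The log2 difference of GCLC was 0.30 ± 0.27 (SE, n = 2 per group; interval -0.34 to 0.93; limma adjusted p = 0.966). It was -0.0742 without untreated replicate 2 and 0.667 without untreated replicate 1, so a single array set both its size and its sign. GCLM, the modifier subunit of the same ligase, stood at 7.60 and 7.84 in untreated and at 7.80 and 7.95 in treated cells. These values were near the limit, above it by 0.28 on untreated replicate 1 and by 0.20 on untreated replicate 2. The groups overlapped, and the log2 difference was 0.16 (interval -0.31 to 0.62, limma adjusted p = 0.985). It was 0.0358 without untreated replicate 1, 0.279 without untreated replicate 2 and 0.0812 without treated replicate 2. The low value of untreated replicate 2 in GCLC was thus not seen in GCLM, in which untreated replicate 1 was the lowest.

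GSS, glutathione synthetase, had a log2 difference of 0.08 (interval -0.36 to 0.53). GSR, the reductase that restores oxidised glutathione, stood at 11.94 and 12.06 in untreated and at 12.28 and 12.09 in treated cells, with a log2 difference of 0.19 (interval -0.26 to 0.63). GSTM1 and GSTM3, glutathione transferases of the mu class and near relatives of each other, had the smallest p among the genes of the list above the limit, with log2 differences of 0.26 (interval -0.22 to 0.74) and 0.30 (interval -0.28 to 0.88). The value of GSTM3 was 0.0295 without untreated replicate 2. CHAC1, an enzyme that breaks glutathione down, was not above the limit on any array, at 5.93 and 6.20 in untreated and at 5.36 and 5.49 in treated cells. CHAC1 was also the 1 gene of the glutathione list with an unadjusted p under 0.05, lower in treated cells, and it did not pass after adjustment. In this list 0 of 28 measured genes passed in either direction, 21 had a mean above the limit, 22 were positive, and the median log2 difference was 0.07. Among the 21 above the limit, 18 were positive, against 58.8% of all named genes above it.

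**Figure D3:**
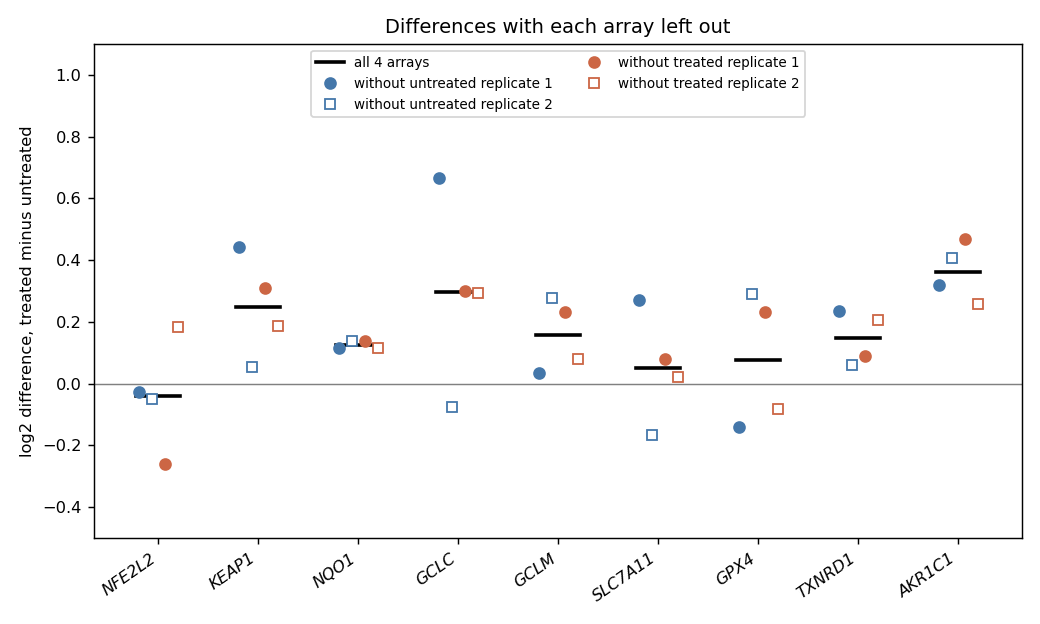
Log2 difference (treated minus untreated, vertical axis) of the 9 genes above the limit with all 4 arrays (black bars) and with each array left out in turn (symbols). The values of GCLC range from -0.0742 to 0.667, whereas those of NQO1 stay between 0.114 and 0.138.

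TXNRD1, the cytosolic thioredoxin reductase and a selenoprotein, stood at 12.98 and 12.81 in untreated and at 13.11 and 12.99 in treated cells. The treated arrays were both above the untreated ones, although treated replicate 2 and untreated replicate 1 were nearly level. Its log2 difference was 0.15 ± 0.19 (SE, n = 2 per group; interval -0.30 to 0.59; limma adjusted p = 0.985), and 0.062 without untreated replicate 2. TXN, the thioredoxin it reduces, had a log2 difference of -0.025 (interval -0.49 to 0.44), and the sign of this value turned with single arrays left out. PRDX1, a peroxiredoxin recharged by thioredoxin, stood at 14.43 and 14.44 in untreated and at 14.57 and 14.49 in treated cells, with a log2 difference of 0.09 (interval -0.34 to 0.52). CAT, catalase, and SOD1, the cytosolic superoxide dismutase, had the smallest p in the thioredoxin and peroxiredoxin list. Their log2 differences were 0.29 (interval -0.14 to 0.73) for CAT and 0.21 (interval -0.25 to 0.67) for SOD1. Of 12 measured genes in that list 0 passed in either direction, 7 were positive, and the median log2 difference was 0.06. Positive among the 11 with a mean above the limit were 7, against 58.8% of all named genes above it.

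GPX4, the selenoprotein that reduces lipid hydroperoxides, stood at 13.61 and 14.04 on untreated replicates 1 and 2, and at 13.74 and 14.06 on treated replicates 1 and 2. The replicates of each group differed by more than the groups did, by 0.429 in untreated and 0.316 in treated cells. Its log2 difference was 0.08 ± 0.23 (SE, n = 2 per group; interval -0.47 to 0.62; limma adjusted p = 0.997), and it was negative without untreated replicate 1 (-0.139) or without treated replicate 2 (-0.0824). Selenoproteins such as GPX4 and TXNRD1 need a dedicated machinery that inserts selenocysteine. SEPHS2, which makes the selenium donor for it, had a log2 difference of -0.015 (interval -0.53 to 0.50), with a sign that turned with single arrays left out. EEFSEC and SELENOW had the smallest p among the genes of the selenoprotein list with a mean above the limit. EEFSEC, the elongation factor for selenocysteine, had 0.16 (interval -0.34 to 0.66), and the small selenoprotein gene SELENOW had 0.17 (interval -0.51 to 0.85). Without untreated replicate 1 these were -0.0252 and -0.0875. In the selenoprotein list 0 of 11 measured genes passed in either direction, 8 were positive, and the median log2 difference was 0.07. Among the 9 with a mean above the limit, 7 were positive, against 58.8% of all named genes above it.

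Other defenses against ferroptosis work beside GPX4. AIFM2, which encodes the ubiquinone reductase FSP1, was not above the limit on any array, at 5.15 and 5.45 in untreated and 5.31 and 5.54 in treated cells. GCH1, the first enzyme of tetrahydrobiopterin synthesis, stood at 10.20 and 9.88 in untreated and at 10.24 and 10.54 in treated cells, with the treated arrays above the untreated ones. The log2 difference of GCH1 was 0.35 (interval -0.16 to 0.86, limma adjusted p = 0.948). CISD1, an iron-sulfur protein of the mitochondrial outer membrane, had 0.25 (interval -0.19 to 0.69). GCH1 and CISD1 had the smallest p among the genes of the ferroptosis defense list with a mean above the limit. FTL, the ferritin light chain that helps store iron, had 0.021 (interval -0.41 to 0.46), and FTH1, the heavy chain, is unnamed in the annotation used here. In the ferroptosis defense list 0 of 11 measured genes passed in either direction, 9 were positive, and the median log2 difference was 0.06. Positive among the 9 with a mean above the limit were 8, against 58.8% of all named genes above it.

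On the opposing side, ACSL4, the acyl-CoA synthetase that loads membranes with oxidizable polyunsaturated fatty acids, stood at 8.84 and 8.69 in untreated and at 8.74 and 8.47 in treated cells. The groups overlapped, with a log2 difference of -0.16 (interval -0.63 to 0.31). TFRC, the transferrin receptor through which iron enters, had 0.18 (interval -0.29 to 0.64), and its groups overlapped. CYB5R1, a reductase known to supply electrons for lipid peroxidation, stood at 9.25 and 9.12 in untreated and at 9.71 and 9.63 in treated cells. Both treated arrays were above both untreated arrays, and the log2 difference of CYB5R1 was 0.49 ± 0.18 (SE, n = 2 per group; interval 0.05 to 0.92), with 0.42 to 0.551 when single arrays were left out. CYB5R1 was the 1 gene among the 108 measured in the 7 pathway lists that had an unadjusted p under 0.05 and was higher in treated cells. Its limma adjusted p was 0.948, and it did not pass. The lipoxygenase genes ALOX5, ALOX12, ALOX15, ALOX12B and ALOX15B, named after their values were seen, were not above the limit on any array. In this list 0 of 16 measured genes passed in either direction, 9 were positive, and the median log2 difference was 0.04. Among the 9 with a mean above the limit, 6 were positive, against 58.8% of all named genes above it.

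Over the 7 pathway lists together, 0 of 108 measured genes passed limma's test in either direction after adjustment, and 2 had an unadjusted p under 0.05, CYB5R1 and CHAC1, a share below the 5.08% of all probe sets. Of the 82 genes with a mean above the limit, 65 were positive and 18 had both treated arrays above both untreated arrays, beside the 58.8% and 21.2% of all named genes above the limit. With both treated arrays below both untreated arrays there was 1 of the 82, BTRC, part of another ubiquitin ligase that targets NRF2, named after its values were seen, beside 11.4% of all named genes above the limit. BTRC stood at 10.1291 and 10.1399 in untreated and at 10.127 and 9.762 in treated cells, so the margin was small beside the treated gap. The median log2 difference of the 82 was 0.08, beside 0.04 for all named genes above the limit.

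**Figure D4:**
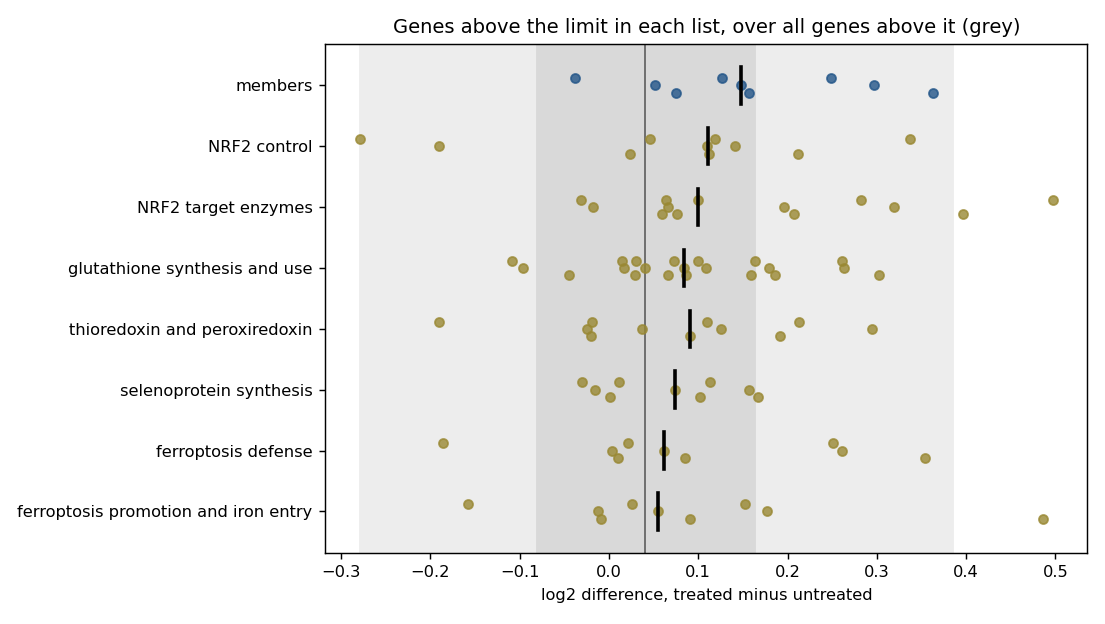
Log2 difference (treated minus untreated, horizontal axis) of each gene above the limit in the 10-gene set (blue) and in the 7 pathway lists (ochre), with the median of each as a black bar. Dark and light grey bands hold the central 50% and 90% of all named genes above the limit, from -0.08 to 0.16 and from -0.28 to 0.39, around their median of 0.04; the 9 blue genes lie between -0.04 and 0.36, inside the light band.

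The 9 genes above the limit did not share 1 pattern over the arrays. Untreated replicate 1 was the lowest array for 4 of them, NQO1, GCLM, GPX4 and AKR1C1, and untreated replicate 2 for 4 others, KEAP1, GCLC, SLC7A11 and TXNRD1. Treated replicate 2 was the lowest for NFE2L2. Among all named genes above the limit, untreated replicate 1 was the lowest array in 23.4%, untreated replicate 2 in 38.6% and treated replicate 2 in 24.2%. Treated replicate 1 was the lowest for 0 of the 9, against 13.8%. The highest value was on treated replicate 2 for 5 of the 9 genes, against 26.2% of all named genes above the limit. Between the 2 untreated arrays the 10 genes, HMOX1 included, had a median absolute log2 difference of 0.315, and between the 2 treated arrays 0.12. The 4 pairs of a treated with an untreated array gave 0.152 to 0.274, each below the value of the untreated pair and above that of the treated pair. Over all probe sets, too, the untreated pair was farthest apart, at 0.244, with 0.193 to 0.242 in the 4 mixed pairs and 0.198 in the treated pair.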

How the data were processed

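The 4 arrays were compared from the log2 values per probe set deposited by the authors. The submitters' processing notes list RMA and, with no role given, Transcriptome Analysis Console 4.0.1.36. The values, from their range, are on a log2 scale. No build is named for the probe sets. Of 24351 probe sets 2903 controls were left out, and 21448 were fitted with limma 3.58.1 (lmFit, eBayes; R 4.3.3). Group was the only term, with two-sided tests, 2 residual and 4.9 prior degrees of freedom, and Benjamini-Hochberg adjustment at 0.05 over all probe sets. In the platform annotation 17709 probe sets had 1 symbol. For the 20 symbols with several, the brightest was used. A gene's mean is above the limit where the average of the 4 values exceeds 6.96, the 95th percentile of the means of the negative controls.

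The design text calls the arrays of a group biological replicates but does not say how the cultures were kept apart. The p-values therefore cover only the spread among these arrays, which may be technical. Their number limits the precision. The 10 genes and all lists were chosen with earlier results of these data known. Named are the 10 genes, 20 fixed partner genes (1 of them not reported here), and the 2 genes with the smallest p and a mean above the limit in each of 7 lists, other genes being said to be named after their values were seen. Of the 119 genes on the lists 11 are unnamed in the annotation. No gene was sought by likeness of pattern, since there are 4 arrays. The fit was tested on simulated data. Alternatives were quantile normalization, cyclic loess, a filter on dim probe sets, trended and robust variances, a block for the replicate number, leaving out each array, the mean of a gene's probe sets, and the 99th percentile as limit.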

Additional observations from a re-analysis of the deposited data

How the results depend on the processing

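No probe set, none of the 10 genes and none of the listed genes passed limma's adjusted threshold under any alternative run, and the unadjusted count was 471 higher and 618 lower. The excess of lower calls turned after quantile normalization (537 higher, 497 lower), cyclic loess (533 and 517) and trended and robust variances (504 and 478). With only probe sets above the limit in the fit, fewer were tested, with 363 higher and 146 lower. With single arrays left out, where the lone array of a group is assumed to vary like the others, 294 to 930 were higher and 396 to 1510 lower, the most without untreated replicate 1 and the fewest without treated replicate 2. With the replicate number as a replicate block the counts were 465 higher and 614 lower. The deviations of same-numbered arrays correlated at -0.000849 over all probe sets, so the numbers were not taken to pair the arrays.

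The median log2 difference of the 10 genes was 0.106 after quantile normalization and 0.107 after cyclic loess, in place of 0.137. With single arrays left out it was 0.0996 to 0.186, the highest without treated replicate 1. The log2 difference of SLC7A11 fell from 0.0519 to 0.000734 after quantile normalization and to 0.00529 after cyclic loess. Medians of lists moved after quantile normalization for target enzymes (0.0553), thioredoxin and peroxiredoxin (0.0476) and ferroptosis defense (0.0161), after cyclic loess for target enzymes (0.069) and thioredoxin and peroxiredoxin (0.0421), and with the filter for the latter (0.0911). With single arrays left out they were 0.0572 to 0.204 for NRF2 control, 0.109 to 0.154 for target enzymes, 0.0245 to 0.111 for glutathione, 0.0771 to 0.123 for thioredoxin and peroxiredoxin, -0.0252 to 0.145 for selenoproteins, 0.0196 to 0.108 for ferroptosis defense and 0.027 to 0.097 for its promotion. The selenoprotein median was the 1 of these that turned sign, without untreated replicate 1. The cause was not tested.

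Signs turned after cyclic loess for BACH1 (-0.000213) and SQSTM1 (-0.00751). With single arrays left out, signs turned for NFE2L2 (-0.261 to 0.184), GCLC (-0.0742 to 0.667), SLC7A11 (-0.166 to 0.27), GPX4 (-0.139 to 0.29), BACH1 (-0.2 to 0.291), SQSTM1 (-0.107 to 0.153), TXN (-0.147 to 0.0981), SEPHS2 (-0.233 to 0.202), EEFSEC (-0.0252 to 0.34), SELENOW (-0.16 to 0.494) and FTL (-0.0542 to 0.097). Other named genes kept their sign but moved by over 1.5 times: CUL3 (0.0377 to 0.186), DPP3 (0.224 to 0.45), MAFF (-0.554 to -0.00354), TKT (0.196 to 0.442), TALDO1 (0.0579 to 0.936), SLC3A2 (0.0786 to 0.448), GSS (0.00351 to 0.165), GSR (0.0941 to 0.278), GSTM1 (0.132 to 0.39), GSTM3 (0.0295 to 0.574), PRDX1 (0.0519 to 0.13), SOD1 (0.0833 to 0.341), GCH1 (0.195 to 0.512), CISD1 (0.158 to 0.344), ACSL4 (-0.294 to -0.0223) and TFRC (0.0319 to 0.322). Among the 10 genes, KEAP1 (0.0552 to 0.442), GCLM (0.0358 to 0.279) and TXNRD1 (0.062 to 0.234) likewise kept their sign and moved by over 1.5 times. With the 99th percentile of the negative controls as limit, 4 of the 10 genes were above it on both untreated arrays, in place of 9.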
